A study of Mus musculus with 12 samples.

Results

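10 genes of DNA repair and redox metabolism that are known as p53 targets in human or mouse cells were followed across 12 RNA sequencing libraries of mouse embryonic fibroblasts. The genes were Fdxr, Sesn1, Sesn2, Ddb2, Xpc, Polk, Ercc5, Rrm2b, Tigar (listed in the files under a RIKEN clone name) and Gadd45a, chosen by name. The tables write the names in capitals, such as FDXR, SESN1 and SESN2. They are 10 of the 11481 genes in the deposited tables, and all 10 were in the table of mock-treated cells. In the table of doxorubicin-treated cells 9 were present, and Ddb2 after doxorubicin was not analysed here. The fibroblasts were primary cultures on a hybrid 129/B6 background and were either wild type (WT, lincRNA-p21+/+) or knockout (KO, lincRNA-p21-/-) for the long noncoding RNA lincRNA-p21, a p53-regulated transcript encoded beside Cdkn1a. Each genotype was mock treated or given doxorubicin, an anthracycline that damages DNA, at 0.5 mM for 24 hours as the labels state. Micromolar doses are more usual, so the unit of that dose is in doubt. This made 4 groups of 3 biological replicates, called WT mock, KO mock, WT dox and KO dox. The labels do not say how many embryos or clones the cultures came from, nor what a replicate number stands for.

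p53 is a transcription factor that is stabilised when DNA is damaged. Beside arrest and death genes it activates genes that repair DNA and that adjust metabolism and oxidant handling. Xpc and Ddb2 encode proteins that recognise damaged DNA at the start of nucleotide excision repair, Ercc5 encodes the XPG endonuclease that cuts on the 3' side of the lesion, and Polk encodes a polymerase that copies past damaged bases. Rrm2b encodes the small subunit of ribonucleotide reductase that supplies deoxynucleotides outside S phase, and Gadd45a encodes a stress protein linked to repair and to p38 and JNK signalling. Fdxr encodes ferredoxin reductase, which passes electrons from NADPH to mitochondrial ferredoxin. Sesn1 and Sesn2 encode sestrins, which restrain mTORC1 and oxidative stress, and Tigar encodes a phosphatase that lowers fructose-2,6-bisphosphate and so favours the pentose phosphate pathway. In human cells p53 activates DDB2, whereas the mouse gene is known not to respond in that way.

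Library totals ran from 14327048 to 20511907 reads, and between 47 and 3651 reads stood behind each value of the 10 genes. Fibroblast genes were abundant: 11 of 12 markers were measured, and their summed level ran from 50682 to 68540 CPM (a gene's reads relative to all reads of that library) in the 6 mock libraries and from 33518 to 44793 CPM in the 6 doxorubicin libraries. Of 49 entries for markers of muscle, endothelial, blood, epithelial, neural, fat and cartilage or bone cells, 18 were in a table, and defining genes such as Myod1, Pecam1, Cdh5, Ptprc and Epcam were in neither. LincRNA-p21 itself was not analysed here, which leaves the genotype labels without that check. Cdkn1a, which lies beside lincRNA-p21, and Mdm2 are other p53 targets and are given as context. Cdkn1a stood at 566 ± 54.7 CPM in WT mock, 315 ± 38.1 in KO mock, 1260 ± 175 in WT dox and 1078 ± 21.9 in KO dox (SD, n = 3 each). The rise of Mdm2 was log2 1.79 for WT and 1.89 for KO. In such bulk samples a lower level can mean fewer cells of a type or less RNA per cell, and these cannot be told apart.

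Doxorubicin raised most of the 9 genes in both genotypes. In WT cells 7 of 9 rose and 0 fell: Fdxr, Ercc5, Sesn1, Xpc, Rrm2b, Polk and Sesn2. In KO cells 6 of 9 rose and 0 fell: Fdxr, Ercc5, Xpc, Rrm2b, Polk and Tigar. Over all 10292 genes tested, 25.9% rose and 21.4% fell in WT (47.3% called), and 19.9% rose and 14.6% fell in KO (34.5% called). Calls are limma tests on log2(CPM + 1) with a Benjamini-Hochberg adjusted p under 0.05. With median centring of the libraries the called genes split into 2202 higher and 2944 lower in WT, against 2664 and 2199 as deposited, and into 1669 and 2027 in KO, against 2052 and 1500. All doxorubicin libraries lay above all mock libraries for 7 of 9 genes in WT (29.4% of all genes, with 25.3% the other way) and for 6 of 9 in KO (27.1%, with 21.5% the other way). The median difference of the 9 genes was 0.74 in WT and 0.64 in KO, against 0.01 and 0.04 over all genes. With the replicate number as a block, 8 of 9 rose in WT (32.1% of all genes) and 7 of 9 in KO (27.1%). The blocked limma fit added Tigar in WT (adjusted p = 0.0475) and Sesn2 in KO (adjusted p = 0.00456). Of 23 alternatives run, Tigar in WT passed in this 1 only, and Sesn2 in KO passed in 6.

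Cell type markers also moved with doxorubicin, here summed over the genes present in both tables. The fibroblast sums of the mock and doxorubicin libraries did not overlap, but the markers did not all fall. Pdgfrb, a fibroblast receptor gene, went from 605 ± 71.8 to 101 ± 27.9 CPM in WT and from 541 ± 108 to 123 ± 40.5 CPM in KO (SD, n = 3 each). Means of Col1a1, Col1a2, Col3a1, Fn1, Thy1, Pdgfra and Dcn were also lower in both genotypes. Vim went from 3974 ± 612 to 4152 ± 248 CPM in WT and from 3899 ± 480 to 4409 ± 404 CPM in KO. Means of Fbln2 and S100a4 were slightly higher in WT and slightly lower in KO. The sum of the endothelial genes Kdr and Eng, 2 of 7 listed, ran from 18.7 to 48.4 CPM in mock and from 54.0 to 94.9 CPM after doxorubicin. The fat cell genes Fabp4, Cebpa and Lpl, 3 of 6 listed, summed to 24.7 to 66.8 CPM in mock and 49.5 to 168 CPM after doxorubicin. Within a genotype the fat cell sums did not overlap, and Cebpa went from 5.64 ± 3.54 to 82.9 ± 26.4 CPM in WT. Fabp4 went from 3.10 ± 0.604 to 8.94 ± 4.12 CPM in WT. Lpl did not rise, at 42.1 ± 18.6 and 39.8 ± 28.1 CPM in WT and 22.6 ± 3.13 and 15.6 ± 6.90 CPM in KO. Cd68, the 1 blood gene of 8 in both tables, ran from 2.42 to 58.3 CPM in mock and from 45.4 to 126 CPM after doxorubicin. Muscle, epithelial, neural and cartilage or bone sums overlapped between treatments. The part of these shifts in the responses of the 10 genes was not tested.

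**Figure D1:**
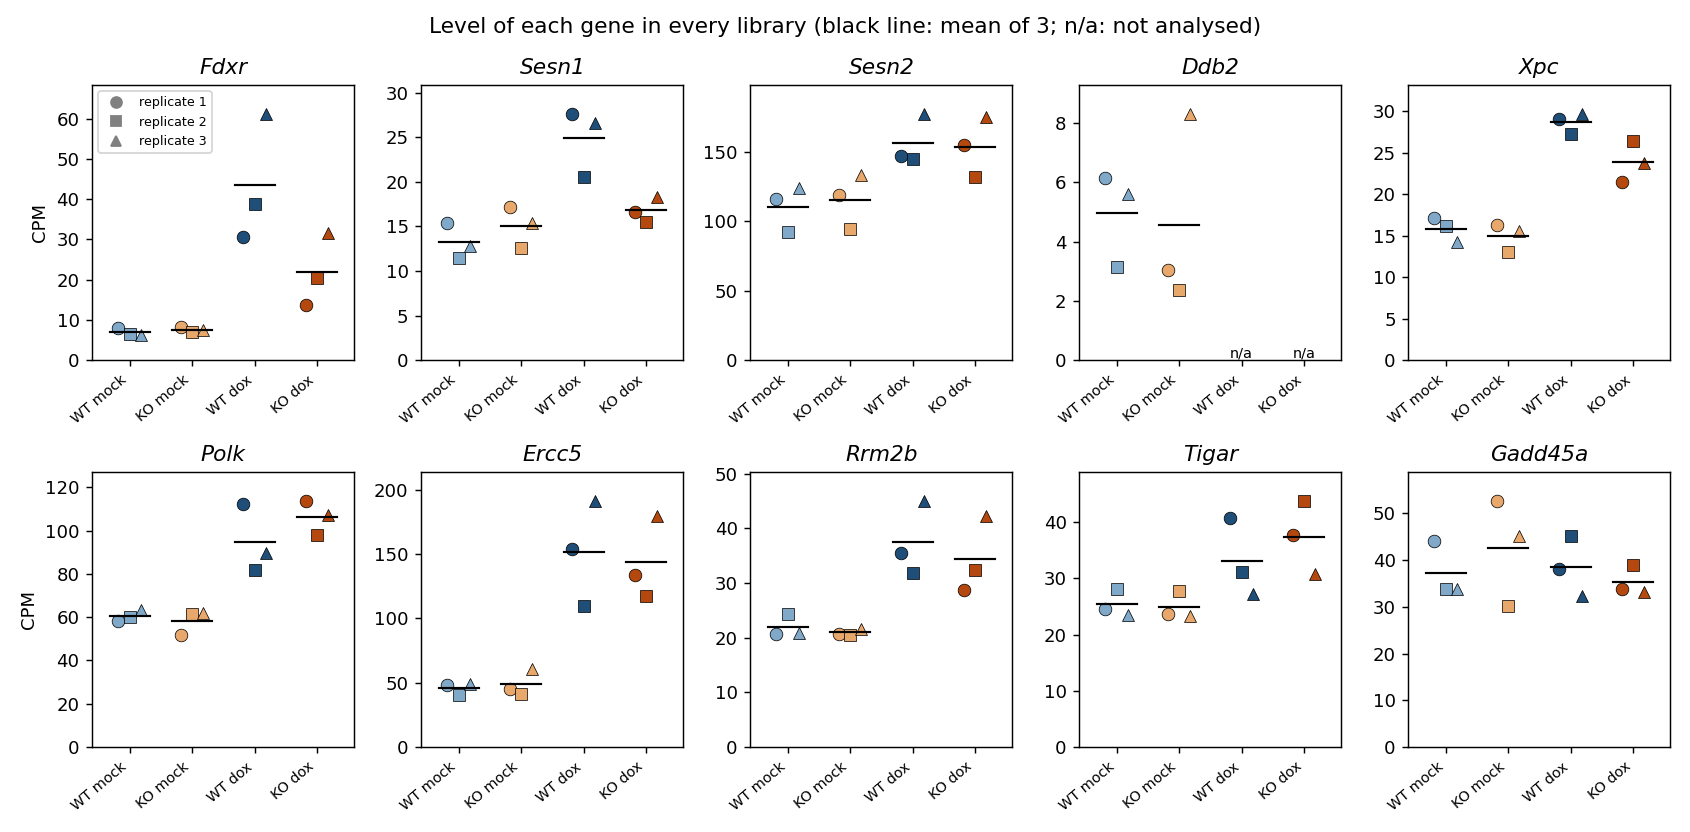
Level of each of the 10 genes in every library, in CPM on a linear axis that starts at 0, with 1 point per library, a marker shape per replicate number and a line at the mean of 3. Fdxr, Xpc, Polk, Ercc5 and Rrm2b lie higher in every doxorubicin library than in any mock library of the same genotype, and Gadd45a overlaps throughout. Ddb2 has mock values only.

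Fdxr, the ferredoxin reductase gene, had the largest rise of the set in WT, whereas in KO Ercc5 rose more. It was at 7.89, 6.56 and 6.31 CPM in WT mock replicates 1 to 3 and at 8.21, 7.02 and 7.44 CPM in KO mock. After doxorubicin it was at 30.6, 38.8 and 61.0 CPM in WT and at 13.8, 20.4 and 31.6 CPM in KO. Every doxorubicin library lay above every mock library, and replicate 3 was highest in both genotypes. Mean CPM rose 6.28-fold in WT and 2.90-fold in KO. The limma difference, taken on log2(CPM + 1), was 2.44 in WT (SE 0.29, adjusted p = 8.8e-05) and 1.35 in KO (SE 0.29, adjusted p = 0.00438). In WT 1.53% of all genes had a larger absolute difference, and in KO 6.34% did.

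Of the 10 genes, 7 were found in a RefSeq table of promoters (GRCm38.p6), with 9 start sites between them. The 250 bases before the start are shown for 3 genes. These are Fdxr, the strongest responder in WT, Sesn1, whose rise passed in WT only, and Gadd45a, which did not change detectably. Capitals mark the core words of a p53 site, which are CAAG, its reverse complement CTTG, and the palindromes CATG and also CTAG, so that both strands are covered.
Fdxr, chr11:115276970-115277219, minus strand: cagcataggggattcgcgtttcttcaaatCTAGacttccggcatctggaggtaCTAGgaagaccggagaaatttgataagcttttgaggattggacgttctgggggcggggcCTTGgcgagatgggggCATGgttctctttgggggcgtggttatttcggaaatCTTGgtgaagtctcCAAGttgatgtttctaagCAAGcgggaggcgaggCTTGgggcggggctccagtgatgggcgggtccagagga
Sesn1, downstream start, chr10:41887189-41887438, plus strand: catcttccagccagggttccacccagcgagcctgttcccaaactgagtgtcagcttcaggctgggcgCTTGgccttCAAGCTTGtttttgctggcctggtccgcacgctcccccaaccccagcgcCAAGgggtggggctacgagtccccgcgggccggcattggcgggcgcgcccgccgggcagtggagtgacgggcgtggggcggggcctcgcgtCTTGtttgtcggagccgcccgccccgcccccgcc
Gadd45a, chr6:67037408-67037657, minus strand: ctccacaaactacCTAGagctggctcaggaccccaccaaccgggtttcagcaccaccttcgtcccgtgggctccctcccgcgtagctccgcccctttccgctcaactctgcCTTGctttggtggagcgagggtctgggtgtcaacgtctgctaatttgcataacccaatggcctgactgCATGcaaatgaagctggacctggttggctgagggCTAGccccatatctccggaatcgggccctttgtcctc
The Fdxr window held 8 core words, and 5.04% of 32851 promoter windows held as many or more, although 96.5% held at least 1. The count did not set Fdxr apart, since a Polk window also held 8. The Sesn1 window shown held 5 and its other window 2 (34.2% and 86.9% of windows held as many or more), and that of Gadd45a held 4 (52.2%). A match to the 10-base p53 half-site, which contains a core word and reads alike on both strands, was in 7.13% of all windows. Among the 9 windows it was found for Sesn1 (aagcttgttt, ending 164 bases before the downstream start), Gadd45a (gggctagccc, ending 31 bases before its start) and Polk (gaactagcct, ending 222 bases before its downstream start). The Fdxr and Ercc5 windows held 0 half-sites. These matches describe letters in a window and no binding was measured.

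Among the repair genes, Ercc5, the XPG endonuclease gene, changed most. It was at 47.9, 40.6 and 49.1 CPM in WT mock, 45.1, 41.5 and 60.3 in KO mock, 154, 109.9 and 191 in WT dox and 134, 117 and 179.9 in KO dox. No doxorubicin library overlapped a mock library, and replicate 2 was lowest in each group. The rise was 3.31-fold in WT (log2 1.67, SE 0.22, adjusted p = 0.000153) and 2.93-fold in KO (log2 1.53, SE 0.22, adjusted p = 0.000513).

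Xpc, the damage sensor gene, was at 17.2, 16.1 and 14.3 CPM in WT mock and 16.3, 13.03 and 15.6 in KO mock. After doxorubicin it was at 29.1, 27.3 and 29.6 CPM in WT and 21.4, 26.4 and 23.8 in KO. Mock and doxorubicin libraries did not overlap in either genotype. The log2 difference was 0.82 in WT (SE 0.13, adjusted p = 0.000541) and 0.64 in KO (SE 0.13, adjusted p = 0.00387).

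Polk, the bypass polymerase gene, was at 58.4, 59.9 and 63.4 CPM in WT mock, 51.8, 61.3 and 61.8 in KO mock, 112, 81.7 and 89.8 in WT dox and 114, 98.0 and 107 in KO dox. Replicate 1 was lowest in both mock groups and highest in both doxorubicin groups, and treatments did not overlap. The log2 difference was 0.62 in WT (SE 0.13, adjusted p = 0.00215) and 0.86 in KO (SE 0.13, adjusted p = 0.000627).

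Rrm2b, the ribonucleotide reductase subunit gene, was at 20.6, 24.3 and 20.8 CPM in WT mock, 20.8, 20.6 and 21.6 in KO mock, 35.5, 31.8 and 44.98 in WT dox and 28.7, 32.3 and 42.2 in KO dox. Again the treatments did not overlap, and replicate 3 was highest after doxorubicin in both genotypes. It rose by log2 0.74 in WT (SE 0.16, adjusted p = 0.00365) and 0.67 in KO (SE 0.16, adjusted p = 0.00924).

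Ddb2, the partner of Xpc in lesion recognition, had the fewest reads of the 10 genes in mock cells and varied most between libraries. It was at 6.14, 3.16 and 5.61 CPM in WT and at 3.06, 2.37 and 8.29 CPM in KO, so the groups overlapped. Its coefficient of variation was 32.05% in WT and 70.7% in KO mock cells, whereas that of Rrm2b was 9.43 and 2.76%. The fewest reads behind any value, 47, were those of Ddb2 in KO mock replicate 2.

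Of the sestrin genes, Sesn1 passed in WT, and Sesn2 stood close to the threshold in both genotypes without the block. With the block the limma adjusted p of Sesn2 was 0.00129 in WT and 0.00456 in KO. Sesn1 was at 15.4, 11.4 and 12.8 CPM in WT mock and 27.6, 20.6 and 26.6 in WT dox, with no overlap, a rise of log2 0.87 (SE 0.17, adjusted p = 0.00157). In KO cells it was at 17.1, 12.6 and 15.3 CPM in mock and 16.6, 15.5 and 18.3 after doxorubicin. These KO groups overlapped, and the log2 difference of 0.16 (95% interval -0.21 to 0.52, adjusted p = 0.489) did not pass.

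Sesn2 was at 116, 92.2 and 124 CPM in WT mock, 119, 94.2 and 133 in KO mock, 147, 145 and 177 in WT dox and 155, 132 and 175 in KO dox. Replicate 2 was lowest in all 4 groups, and treatments overlapped in KO but not in WT. The difference of log2 0.50 in WT passed (SE 0.16, adjusted p = 0.0254) and that of 0.42 in KO did not (SE 0.16, adjusted p = 0.0663) unless the block was used. The WT call was lost without WT mock replicate 2 (adjusted p = 0.102) or WT dox replicate 3 (0.0965), with median centring (0.0769) and with quantile normalization (0.0940). The KO difference passed without KO mock replicate 3 (adjusted p = 0.0427) or KO dox replicate 2 (0.0477).

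Tigar was at 24.5, 28.1 and 23.5 CPM in WT mock, 23.7, 27.7 and 23.2 in KO mock, 40.7, 31.2 and 27.3 in WT dox and 37.6, 43.7 and 30.8 in KO dox. Treatments overlapped in WT only, where WT dox replicate 3 was below WT mock replicate 2. The log2 difference was 0.35 in WT (95% interval -0.02 to 0.73, adjusted p = 0.108) and 0.56 in KO (SE 0.17, adjusted p = 0.0255). The KO call was lost without KO mock replicate 1 or 3 (adjusted p = 0.0758 and 0.0745) or KO dox replicate 1 or 2 (0.0600 and 0.0966).

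Gadd45a, a textbook damage-inducible gene, showed no detectable change. It was at 44.0, 33.7 and 33.9 CPM in WT mock and 38.0, 45.2 and 32.3 in WT dox, and at 52.6, 30.2 and 45.1 in KO mock and 33.8, 38.9 and 33.1 in KO dox. All groups overlapped, and replicate 2 was alone in being higher after doxorubicin, in both genotypes. The log2 difference was 0.05 in WT (95% interval -0.39 to 0.49, adjusted p = 0.858), turning to -0.06 with median centring or quantile normalization. In KO it was -0.23 (95% interval -0.68 to 0.21, adjusted p = 0.393). With the block and without replicate 2 the KO value was -0.53 and passed (adjusted p = 0.0339).

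**Figure D2:**
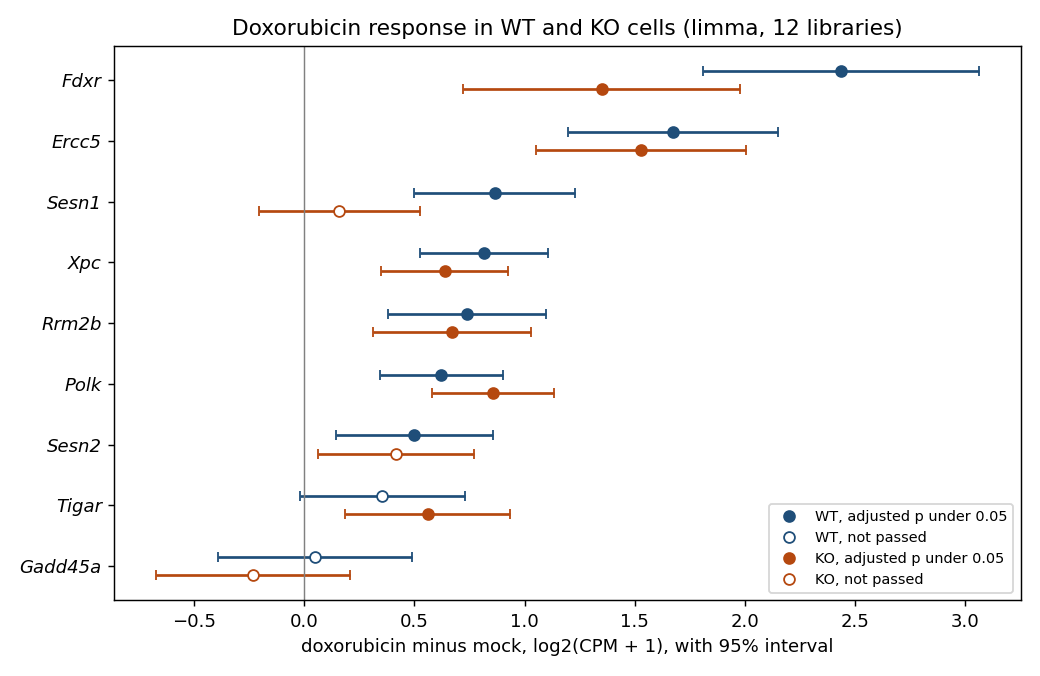
Doxorubicin minus mock on the log2(CPM + 1) scale for the 9 genes in both tables, in WT and KO cells, with 95% intervals from the limma fit of 12 libraries; filled points passed an adjusted p of 0.05. Fdxr lies at 2.44 in WT and 1.35 in KO, and Sesn1 at 0.87 and 0.16, while the intervals of the genotypes overlap widely for the other genes.

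In mock cells none of the 10 genes differed detectably between KO and WT. With limma 0 of 10 passed and 0% of 10648 genes were called, with 0 of 10 and 440 genes (4.13%) at an unadjusted p under 0.05. With the block 0 of 10 passed while 0.92% of genes did. The 10 differences ran from log2 -0.21 (Ddb2) to 0.17 (Sesn1), with 5 above and 5 below WT and a median of 0.01, against 0.06 over all genes. WT and KO libraries overlapped for each of the 10, while over all genes KO lay wholly above WT for 8.25% and wholly below for 1.74%. Fdxr differed by log2 0.12 (95% interval -0.22 to 0.45) and Sesn1 by 0.17 (95% interval -0.23 to 0.57), both higher in KO in 3 of 3 replicate numbers. The interval for Ddb2 was widest, from -1.22 to 0.80.

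After doxorubicin Fdxr and Sesn1 were lower in KO than in WT cells in 3 of 3 replicate numbers. Both differences passed with the replicate block but not without it. Xpc was also lower and Polk higher in KO in 3 of 3. The share of all genes with such agreement was not computed. Relative to WT of the same replicate number, KO stood at 0.452, 0.527 and 0.518 times the WT level for Fdxr in replicates 1 to 3, and at 0.601, 0.754 and 0.687 times for Sesn1. The Fdxr means were 43.5 ± 15.7 CPM in WT and 21.9 ± 8.98 CPM in KO (SD, n = 3 each). Replicate 3 was highest in both genotypes, and KO replicate 3 (31.6 CPM) lay above WT replicate 1 (30.6 CPM). The Sesn1 means were 24.9 ± 3.79 and 16.8 ± 1.40 CPM, and the highest KO library (18.3 CPM) was under the lowest WT library (20.6 CPM).

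Fdxr differed by log2 -0.97 (SE 0.34 without the block and 0.10 with it), with an adjusted p of 0.443 in limma without the block and 0.0044 with it. Sesn1 differed by log2 -0.53 (SE 0.18 and 0.11), with an adjusted p of 0.443 and 0.0188. Without the block 0 of 9 passed and 0% of 11125 genes were called, with 2 of 9 and 1246 genes (11.2%) at an unadjusted p under 0.05. With the block 2 of 9 passed, both lower, where 25.3% of all genes were called and 13.6% were lower. Counted in either direction, the set was called no more often than all genes. With 9 genes, the share that was lower cannot be set apart from that of all genes. Within the blocked fit Fdxr passed without pair 1, 2 or 3 (adjusted p = 0.0342, 0.0057 and 0.00124), and Sesn1 passed without pair 2 (0.0165) but not without pair 1 (0.0985) or pair 3 (0.0600).

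The remaining genes did not pass in KO against WT after doxorubicin with or without the block. Xpc was lower in every KO library than in any WT library (log2 -0.26, 95% interval -0.61 to 0.10, adjusted p = 0.477, and 0.126 with the block). Among the 9 genes KO lay wholly below WT for Sesn1 and Xpc and wholly above for 0, against 6.64% and 9.7% of all genes. Polk (0.18) and Tigar (0.18) were above WT, and Ercc5 (-0.06), Rrm2b (-0.12), Gadd45a (-0.12) and Sesn2 (-0.03) were below it. Their 95% intervals all included 0 and reached at most 0.65 and at least -0.61. The median over the 9 was -0.12, against 0.03 over all genes.

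Some other transcripts had lower values in the same KO libraries. Trp53, which encodes p53, was at 283 ± 59.2 CPM in WT dox and 220 ± 42.0 CPM in KO dox, and KO stood at 0.679, 0.985 and 0.700 times WT in replicates 1 to 3 (log2 -0.36, adjusted p = 0.458, and 0.0522 with the block). Mdm2 stood at 1.01, 1.24 and 0.973 times WT in the same pairs. The summed level of 3 measured fat cell markers out of 6 ran from 98.5 to 168 CPM in WT dox and from 49.5 to 77.1 CPM in KO dox, and that of 3 endothelial markers out of 7 from 82.7 to 104 and from 58.5 to 79.2 CPM. Adipoq, Plin1, Pecam1 and Cdh5 were not among those measured. The part of these differences in the result for Fdxr and Sesn1 was not tested.

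**Figure D3:**
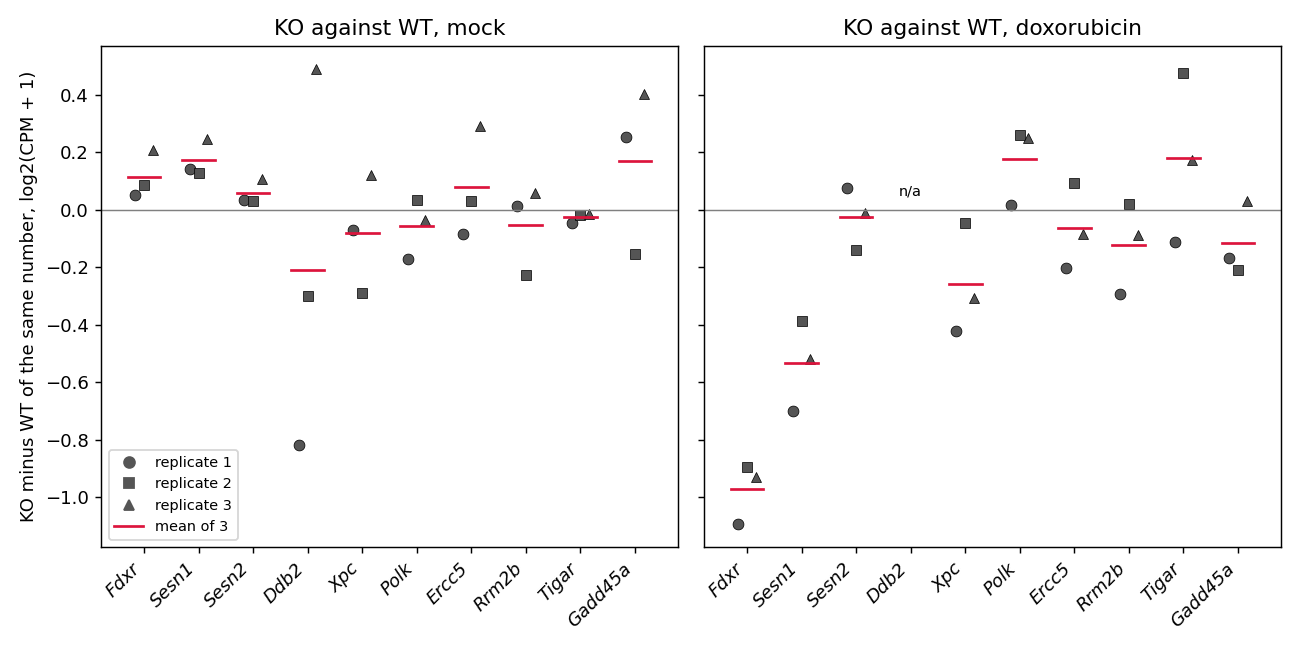
KO minus WT of the same replicate number on the log2(CPM + 1) scale, in mock cells (left) and after doxorubicin (right), with 1 point per replicate number and a line at the mean of 3. After doxorubicin all 3 points of Fdxr lie between -1.09 and -0.89 and those of Sesn1 between -0.70 and -0.39, whereas in mock cells both genes lie slightly above 0.

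The test of whether the doxorubicin response differed between genotypes called none of the 9 genes. The interaction was log2 -1.09 for Fdxr (95% interval -1.98 to -0.20, unadjusted p = 0.0209, limma adjusted p = 0.922) and -0.71 for Sesn1 (95% interval -1.22 to -0.19, unadjusted p = 0.0118, adjusted p = 0.922). With the block the adjusted p was 0.396 and 0.387. That block pairs mock with doxorubicin libraries within a genotype, so an interaction test that also pairs WT with KO was not run. The interaction test uses the same libraries as the comparisons already given. The log2 difference of Fdxr in replicates 1 to 3 was 1.83, 2.39 and 3.09 in WT and 0.69, 1.42 and 1.95 in KO. For Sesn1 it was 0.80, 0.80 and 1.00 in WT, against -0.04, 0.28 and 0.24 in KO. Over all genes 0% of 10292 were called with or without the block, and 468 (4.55%) had an unadjusted p under 0.05 without it and 1228 (11.9%) with it. For the other 7 genes the interaction ran from -0.28 (Gadd45a) to 0.23 (Polk), and each interval included 0.

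For each member the 3 genes whose log2(CPM + 1) followed it most closely over the 12 libraries were found by Pearson correlation. The libraries fall into mock and doxorubicin sets and share replicate numbers, so the values are a description and no p is given. Nearest to Fdxr were Crat (r = 0.996), the carnitine acetyltransferase gene, Rab11fip5 (0.995) and D230025D16Rik (0.994). Within the 6 doxorubicin libraries alone their correlations were 0.993, 0.990 and 0.988, and within the 6 mock libraries 0.584, 0.549 and 0.589. Nearest to Sesn1 were Adck4 (0.946), Fkbp2 (0.940) and Lcmt1 (0.936). Ercc5 was followed by Zfp365 (0.993), Aldh4a1 (0.993) and Linc631 (0.992). Xpc was followed by Spns1 (0.985), and Rrm2b by Ddr1 (0.987). Polk was followed by Spryd4 (0.981), Sesn2 by Sulf2 (0.979) and Tigar by 2210016F16Rik (0.969). Gadd45a had the loosest neighbours, Nsun4 (0.884), Gnl1 (0.859) and Mknk1 (0.795).

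The other genes of these pathways are given by lists that leave the 10 out. Of the other p53 targets, 26 of 32 measured rose and 0 fell after doxorubicin in WT, and 27 rose and 0 fell in KO, with medians of log2 0.96 and 1.03. The smallest p-values in WT were those of Mdm2, the ubiquitin ligase gene of p53, Ei24 and Gtse1, which rose by log2 1.79, 1.31 and 1.33 (adjusted p = 6.24e-06, 9.1e-06 and 4.74e-05). In KO they were those of Mdm2, Cdkn1a and Ei24, which rose by 1.89, 1.78 and 1.35 (adjusted p = 1.26e-05, 1.99e-05 and 1.99e-05). The rises were not the largest of the list. Perp and Pltp, named after their values were seen, rose by 4.92 and 3.74 in WT and by 3.88 and 4.10 in KO. Of 25 other nucleotide excision repair genes 5 rose and 6 fell in WT, and 4 rose and 5 fell in KO, with medians of -0.19 and 0.04. Xab2 (0.90) and Xrcc1 (1.01) rose in WT, and the ligase gene Lig1 fell by 1.51 on the log2 scale in WT and by 2.17 in KO. These shares compare with 25.9% of all genes higher and 21.4% lower in WT, and 19.9% and 14.6% in KO.

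The lists given here are read against the same shares of all genes, 25.9% higher and 21.4% lower in WT and 19.9% and 14.6% in KO. Of 14 other genes of translesion synthesis, 2 rose (14.3%) and 4 fell (28.6%) in WT. In KO 2 rose (14.3%) and 6 fell (42.9%). Rad18, the ubiquitin ligase gene that starts this pathway, fell by 1.65 in WT and 1.73 in KO on the log2 scale (adjusted p = 0.000129 and 0.000212), and Pold3 and Mad2l2 fell too, by 0.58 and 0.71 in WT. Of 15 nucleotide supply genes 3 rose (20%) and 5 fell (33.3%) in WT, and 1 rose (6.67%) and 4 fell (26.7%) in KO. Rrm1, the large subunit of ribonucleotide reductase that pairs with the Rrm2b protein, fell by 1.56 in WT and 1.57 in KO on the log2 scale. Of 9 genes of the GADD45 family and stress kinases 3 rose (33.3%) and 1 fell (11.1%) in WT. In KO 2 rose (22.2%) and 1 fell (11.1%). Map2k3, a p38 kinase kinase gene, rose by 1.17 and 1.05, and Mapk8, which encodes JNK1, fell by 1.01 in WT and 0.55 in KO.

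On the redox side, where the same shares of all genes apply, 12 of 22 antioxidant genes and NRF2 targets rose and 2 fell in WT, and 10 rose and 2 fell in KO, with medians of log2 0.54 and 0.37. Srxn1, the sulfiredoxin gene, rose by 2.42 in WT and 1.77 in KO (adjusted p = 4.01e-05 and 0.000411), Hmox1, heme oxygenase 1, by 1.62 in WT, and Sod1, superoxide dismutase 1, by 1.03 in WT and 0.73 in KO. Of 14 genes of ferredoxin and iron-sulfur cluster assembly 3 rose (21.4%) and 2 fell in WT, and 3 rose and 1 fell in KO, which is near or under the shares of all genes. Glrx5, a mitochondrial glutaredoxin gene, rose by 1.77 and 1.17, while the chaperone gene Hspa9 fell by 0.71 and 0.79. Of 17 genes of glycolysis and the pentose phosphate shunt 5 rose and 2 fell in WT, and 6 rose and 0 fell in KO. Pfkfb2 and Pfkfb3 encode kinases that make the sugar phosphate Tigar removes. Pfkfb2 rose by 1.84 and 1.24, and Pfkfb3 by 0.97 and 0.61. Of 24 genes around sestrins and mTORC1, 5 rose (20.8%) and 5 fell in WT, also near those shares, and 6 rose and 2 fell in KO. Tsc2, an mTORC1 inhibitor gene, rose by 1.14 and 0.78, and Prkab2, an AMPK subunit gene, fell by 1.17 in WT. With the replicate block, where 32.1% of all genes rose and 28.2% fell in WT and 27.1% rose and 21.8% fell in KO, some list counts moved by more than 1.5 times. Glycolysis and the shunt then had 8 rising and 4 falling genes in WT and 7 and 2 in KO. The GADD45 and stress kinase list had 3 falling in WT and 2 in KO, and the sestrin and mTORC1 list had 4 falling in KO.

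**Figure D4:**
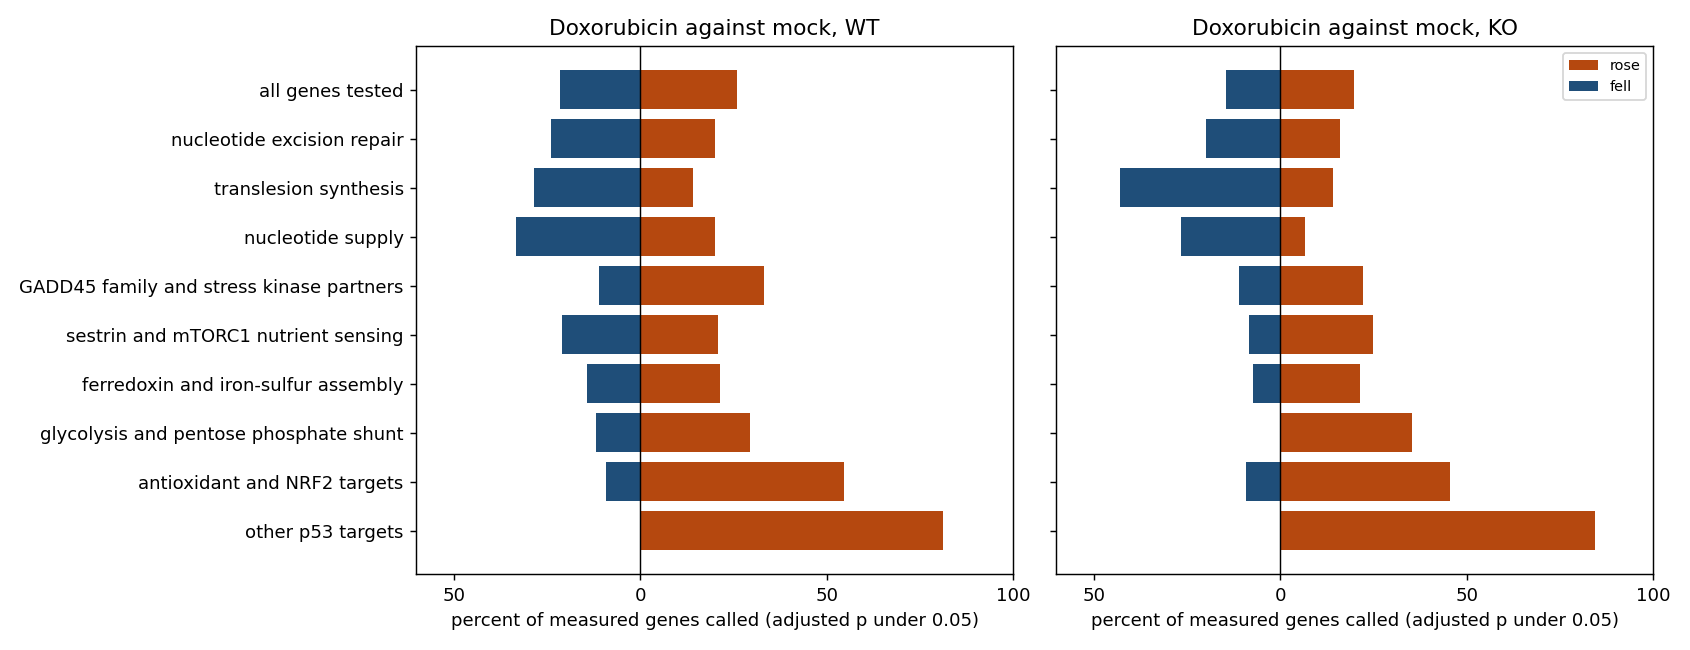
Share of the measured genes of each pathway list that rose (right of 0) or fell (left of 0) after doxorubicin in WT and KO cells, in percent, with all 10292 genes at the top. The other p53 targets rose in 26 of 32 cases in WT and 27 of 32 in KO, and nucleotide excision repair had about as many falling as rising genes in both.

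In KO against WT after doxorubicin the pathway lists had 0 calls without the block, and with it they are read against 11.8% of all genes higher and 13.6% lower. Of 22 antioxidant genes 2 were higher and 4 lower, the latter led by Hmox1 (log2 -0.51, adjusted p = 0.00787), Srxn1 (-0.61, adjusted p = 0.0103) and Prdx6 (-0.41, adjusted p = 0.0104). Of 17 glycolytic and shunt genes 1 was higher and 4 were lower, with Pfkfb3 and Pfkfb2 both at -0.61. Of 15 ferredoxin and iron-sulfur genes 0 were higher and 2 lower. These were Cyp27a1, a mitochondrial sterol hydroxylase gene whose enzyme takes electrons from ferredoxin (-1.21, adjusted p = 0.00539), and Glrx5 (-0.58, adjusted p = 0.0115). Of 32 other p53 targets 4 were higher and 2 lower, and of 25 nucleotide excision repair genes 5 were higher and 2 lower. Of 9 GADD45 and stress kinase genes 3 were higher (33.3%) and 1 lower, with Gadd45g at 0.41 (adjusted p = 0.0144) and Mapk8 at 0.48 (adjusted p = 0.0276). Of 25 sestrin and mTORC1 genes 4 were higher and 2 lower, and of 15 nucleotide supply genes 3 were higher and 3 lower. Of 14 translesion genes 0 passed. In mock cells with the block 1 gene of these lists passed, Cdkn1a, which was lower in KO.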

How the data were processed

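RNA was sequenced from 12 fibroblast libraries made with a stranded mRNA kit, per the labels' protocols. TopHat2 2.0.6 is listed in the submitters' processing notes, as are edgeR, HTSeq and NCBIM37 (a mouse assembly), with no role given. The values deposited by the authors are CPM per gene in 2 tables, mock and doxorubicin, each with both genotypes. Within each library the values are whole multiples of 1 step, taken as 1 read over the library's total (100% of them within 0.001 of a read). That alone does not show a common scale. The listed genes summed to between 991883 and 996413 CPM per library, so mock and doxorubicin values were taken to share a scale.

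In WT libraries no listed gene was at or under 2 CPM, but in KO 164 mock and 313 doxorubicin genes were, in at least 1 library, so genes high in KO alone are not analysed here. Of the 10 genes, only Ddb2 fell outside a table.

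limma 3.58.1 in R 4.3.3 (eBayes with trend) was run on log2(CPM + 1) over all genes, which understates changes of low genes. The genotypes were compared inside each table, and doxorubicin with mock and the interaction in all 12 libraries, over 10292 genes. A filter at a mean of 1 CPM removed 0 genes. P-values were two-sided. The fits were run on simulated data in which all groups shared the same replicate effect. The limits set there were on the recovery of doxorubicin differences and on mean error, with none on false calls. Without the block the p-values measure the spread between cultures the labels call biological replicates. With it they measure the spread of the differences between same-numbered libraries.

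Same-numbered WT and KO libraries deviated together from their group means (r = 0.710 to 0.855 in mock and 0.669 to 0.800 after doxorubicin, across genes), as did mock and doxorubicin libraries of a genotype (0.394 to 0.728). The replicate number was therefore taken to pair them, from the data and not the labels. The block was the number within a table and the genotype and number across tables.

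Members, lists and tests were chosen with earlier results of these data known. Named genes were the 10 members, Cdkn1a, Mdm2 and Trp53, up to 3 called genes of smallest p per list, and 3 nearest genes per member. Of 190 list entries 176 were matched, 7 through RefSeq synonyms. Ddit4 and Gpx1 stand in 2 lists each. Because the assemblies differ, coordinates are given only for RefSeq promoter windows. Alternatives were other pseudocounts (0.5 and 5 CPM), a filter at 10 CPM, scalings, the block and left-out replicates.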

Additional observations from a re-analysis of the deposited data

How the results depend on the processing

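The rise of Fdxr, Ercc5, Sesn1, Xpc, Rrm2b and Polk in WT, and of Ercc5, Polk and Rrm2b in KO, passed under all 23 alternatives run, whereas in KO Fdxr and Xpc passed in 22 of 23, missing with the block and without replicate 2 (adjusted p = 0.0610 and 0.0687). Left-out libraries gave 6 to 7 called members in WT and 5 to 6 in KO. The replicate block moved the genes called in KO against WT from 0 to 98 in mock and from 0 to 2820 after doxorubicin, and the members called after doxorubicin from 0 to 2. Without replicate 1, 2 or 3 the blocked fit called 4, 0 and 2438 genes in mock, 692, 2590 and 1560 after doxorubicin, and 1, 2 and 1 members there. Besides the calls of Fdxr, Sesn1, Tigar and Sesn2 given above, the block changed no member's call.

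Values near 0 changed sign, none of them past the threshold, and the cause was not tested. With median centring, which moved the median of all genes in doxorubicin against mock in WT from 0.01 to -0.10, Gadd45a in that comparison was -0.063 (and -0.057 with quantile normalization). Sesn2 in KO against WT in mock became -0.00500 with median centring and -0.00730 with TMM-type scaling. Over left-out libraries the mock differences ran from -0.068 to 0.19 (Sesn2), -0.077 to 0.19 (Ercc5), -0.093 to 0.020 (Rrm2b), -0.104 to 0.045 (Tigar), -0.102 to 0.025 (Polk), -0.65 to 0.079 (Ddb2) and -0.148 to 0.011 (Xpc). After doxorubicin they ran from -0.28 to 0.12 (Ercc5), -0.23 to 0.0036 (Gadd45a), -0.27 to 0.016 (Rrm2b) and -0.12 to 0.081 (Sesn2). Gadd45a in WT ran from -0.071 to 0.17, and interactions from -0.36 to 0.039 (Ercc5), -0.22 to 0.069 (Rrm2b) and -0.22 to 0.042 (Sesn2). With the block and without replicate 1, Ddb2 in mock was 0.095, Ercc5 after doxorubicin 0.0040 and the Rrm2b interaction 0.051. Without replicate 2, Xpc and Rrm2b in mock were 0.024 and 0.034, Sesn2 after doxorubicin 0.031 and Gadd45a in WT -0.13. Without replicate 3, Ercc5 in mock was -0.026. The planned count tests were not run, although the values are whole multiples of 1 read, so what they would call is not known. With 3 libraries per group, the intervals printed show the precision of each difference.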
